A study of Mus musculus with 8 samples.

Results

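The Meis, Pbx and Pknox proteins are the DNA-binding partners of Hox proteins, and the signal of Flag-tagged HoxB4 over the promoters of 8 of their genes is described here: Meis1, Meis2, Meis3, Pbx2, Pbx3, Pbx4, Pknox1 and Pknox2. The genes were chosen by family, with no measured value in the rule, though earlier results of these data were known. They are 8 of 16647 genes with usable windows of probes on the promoter arrays. Their promoters carried 240 probes, found by the gene that each probe's annotation names first, and a further 29 probes that list Pbx2 under a neighbouring gene are given apart. Meis2 stands there under the older symbol Mrg1 and Meis3 under Mrg2, and both were matched through their transcript identifiers.

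The cells were blood progenitors made from the mouse ES cell line B6N-22UTR. Precursors carrying both c-Kit and CD41 were taken from embryoid bodies at day 6, grown on OP9 stromal cells and infected with a retrovirus for HoxB4 with a 3×FLAG tag, and c-Kit+ cells were collected with magnetic beads at day 12 of coculture. Chromatin precipitated through the Flag tag (Flag-IP, Cy5) was hybridised against input chromatin of these cells (Cy3) on 2 Agilent promoter arrays, after amplification of both DNAs with T7 RNA polymerase. HoxB4 was therefore overexpressed and tagged, and no precipitation from control-infected cells is analysed here. Expression arrays of cells with MigR1, HoxB4 or iHoxB4 belong to the same study, but their probe sets carry no gene names here, so the transcript levels of the cofactors and the blood and stromal markers of the cells were not analysed. The 2 promoter arrays hold different probes, with Meis2, Meis3, Pbx3 and Pbx4 on the first and Meis1, Pbx2, Pknox1 and Pknox2 on the second, so every promoter has 1 sample, no replicate and no test.

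Hox proteins bind short AT-rich sites on their own and gain selectivity by pairing with TALE homeodomain proteins, a class named for an extra loop of amino acids in the homeodomain. Pbx proteins bind next to the Hox protein on a joint site, and Meis and Pknox proteins bind Pbx, help to bring it into the nucleus and can add their own site to the complex. In blood, Meis1 sustains stem cells and acts with Hox proteins in leukaemia, and Pknox1 (also called Prep1) is needed for normal blood formation in the mouse embryo. The comparison below asks how much Flag-HoxB4 chromatin was recovered over the promoters of genes that encode such partners.

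Promoter sequences were found for 5 of the 8 genes in the RefSeq table for GRCm38.p6, from 250 bases before to 50 bases after the annotated start. Those of Meis1, Meis2 and Pbx4 are shown because the arrays gave high ratios before the start of Meis1 and around that of Pbx4 and low ratios around the start of Meis2. They lie at chr11:19018920-19019219 on the minus strand for Meis1, chr2:116064570-116064869 on the minus strand for Meis2 and chr8:69832374-69832673 on the plus strand for Pbx4. They are written 5′ to 3′, and capitals mark TAAT, the core of a Hox homeodomain site, and CCAAT, a common promoter element, on either strand (ATTA and ATTGG where the match is on the opposite one).
Meis1 promoter: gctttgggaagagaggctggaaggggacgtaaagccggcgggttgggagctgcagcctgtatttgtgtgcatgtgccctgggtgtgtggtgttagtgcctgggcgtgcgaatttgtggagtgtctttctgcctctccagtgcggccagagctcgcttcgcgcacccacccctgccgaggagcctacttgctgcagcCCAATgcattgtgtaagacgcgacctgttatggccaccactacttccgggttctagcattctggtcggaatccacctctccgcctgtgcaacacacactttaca
Meis2 promoter: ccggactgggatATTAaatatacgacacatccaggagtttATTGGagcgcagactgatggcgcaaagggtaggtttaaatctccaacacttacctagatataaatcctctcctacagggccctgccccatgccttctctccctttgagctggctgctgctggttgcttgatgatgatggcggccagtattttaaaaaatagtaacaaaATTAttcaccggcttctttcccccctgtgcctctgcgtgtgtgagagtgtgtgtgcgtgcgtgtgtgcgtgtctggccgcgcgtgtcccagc
Pbx4 promoter: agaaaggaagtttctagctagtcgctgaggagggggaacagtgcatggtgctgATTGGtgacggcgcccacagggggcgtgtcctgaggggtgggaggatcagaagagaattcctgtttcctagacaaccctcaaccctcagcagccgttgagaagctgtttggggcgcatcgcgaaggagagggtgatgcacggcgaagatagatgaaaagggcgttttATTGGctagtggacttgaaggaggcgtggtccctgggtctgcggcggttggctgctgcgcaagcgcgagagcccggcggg

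Of the 3 sequences, only that of Meis2 holds the TAAT core, and it holds 2 copies. At least 1 TAAT stands in 58.0% of the 32851 promoters of the table, none of the other 4 members' promoters holds one, and Meis3 and Pbx2, at 66.7% and 76.0% G and C against a median of 52.7%, are the most GC-rich of the 5. The joint Hox and Pbx site TGATTNAT stands in 3.22% of all promoters, the Meis and Pknox site TGACAG in 19.2% and TAATTA, which contains TAAT, in 5.29%, and none of these was found in the 5 promoters. CCAAT was found in Meis1, Meis2 and Pbx4, with 2 copies in Pbx4, and in 37.4% of all promoters. A match in these letters is a description of the window and not a binding site. No source used here names the build of the array's coordinates, so probes were not placed on these sequences.

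The measured value is log2 of Flag-IP over input at each probe, centred on the median of its array, so 0 is the typical probe. To damp single spots, medians over 3 neighbouring probes with starts no more than 1000 bp apart were taken, and the highest and the lowest of these windows describe a gene. The scanner's own error per probe, which covers the spot and not the experiment, had a median of 0.23 on the log2 scale over all probes. All values below are such log2 ratios unless a signal is named, positions are in bp from the gene start of the array annotation with minus signs before it, and levels of genes on different arrays rest on each array's own centring.

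The 8 cofactor promoters had highest windows close to those of other genes, and none stood out by a high Flag-HoxB4 ratio. Meis2 and Pknox1 were the 2 members whose highest window reached 1 (2-fold over the typical probe), against 42.7% of all genes with windows. A window of 2 was reached by 0 members and by 3.02% of all genes. The median of the highest windows was 0.93 over the 8 members and 0.90 over all genes, with an interquartile range of 0.54 to 1.26. This order was turned in 3 settings of processing: 0.66 and 0.82 with the trend of the ratio on brightness removed, 0.57 and 0.72 with medians over 5 probes, and 0.92 and 1.02 with normexp background correction. The lowest window was at or below -1 in 6 members and in 54.4% of all genes, and at or below -2 in 0 members and in 11.6% of all genes. With normexp correction, which starts from the mean and background signals in place of the processed ones, 3 members and 51.3% of genes reached 1, and 0 members and 6.82% of genes reached -1.

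**Figure D1:**
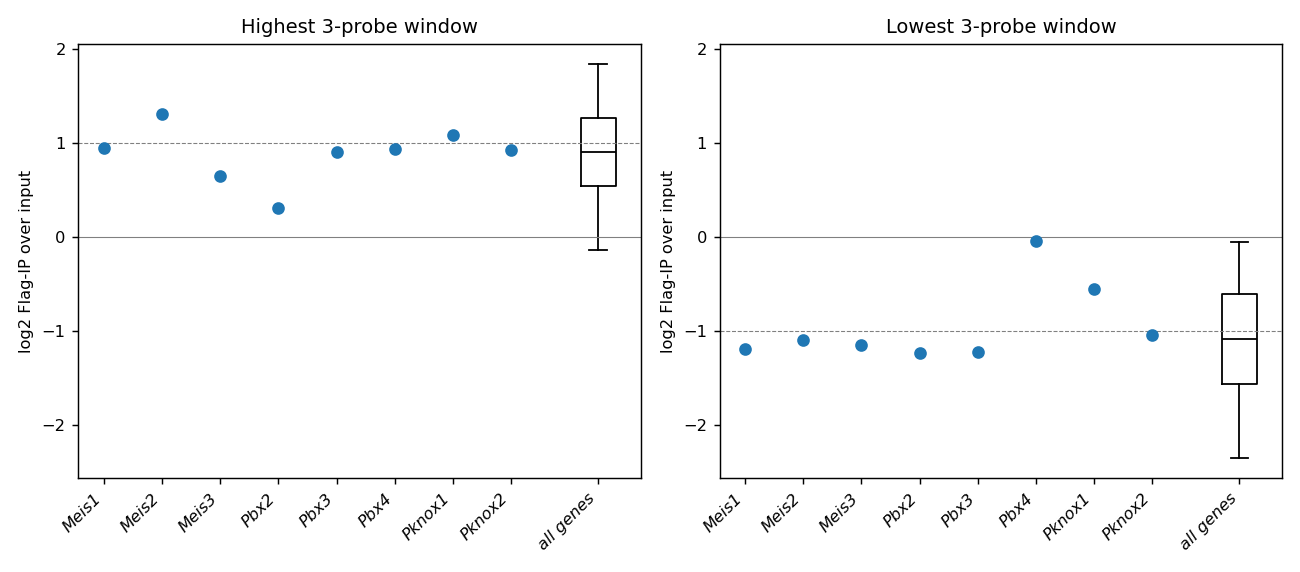
Highest (left) and lowest (right) 3-probe window of each cofactor gene, as log2 Flag-IP over input, beside a box of all 16647 genes with windows (line, median; box, interquartile range; whiskers, 5th to 95th percentile). Dashed lines mark 1 and -1. Meis2 and Pknox1 lie above 1 on the left, and Pbx2, with probes from -56 to 4699 bp only, is the lowest there at 0.31.

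By highest window the order was Meis2 (1.31), Pknox1 (1.09), Meis1 (0.95), Pbx4 (0.94), Pknox2 (0.92), Pbx3 (0.91), Meis3 (0.65) and Pbx2 (0.31). Neighbours in this order from Meis2 to Pbx3 lay closer together than the scanner's median error for a single probe. Meis3 and Pbx2 stood below their neighbours by more than that error. The 3 probes inside each of these windows spread more widely, with SDs from 0.39 (Meis3) to 0.98 (Meis2). The order of neighbours was therefore not resolved. With the probes counted here, which for Pbx2 run only from -56 to 4699, Pbx2 was lowest in all 11 settings of processing that were run. None of the 11 changed that coverage, so the region before the Pbx2 start is hardly part of this ranking. With the 29 probes that list Pbx2 under another gene added, its highest window was 1.86, the first of the 8, and 3 members reached 1. Removing the brightness trend took the highest window to 0.47 in Pbx3 and 0.56 in Pbx4. The first place was held by Meis2 in 7 settings, by Meis1 in 2 and by Meis3 and Pknox1 in 1 each. Those 7 are not separate checks. They include the main setting, and the others left the Meis2 window at 1.31 or moved it only by the centring of the array. Meis2 was not first with normexp correction, the brightness trend removed, single probes or windows of more probes. The gene next above Meis2 in the list of all genes was Gpr180 and the gene next below it was Sem1, each also at 1.31, and Meis2 ranked 3794 of 16647. The members were covered by between 7 windows (Pbx4) and 41 windows (Meis1), against a median of 25 per gene, and a gene with more windows has more chances of a high or low one.

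**Figure D2:**
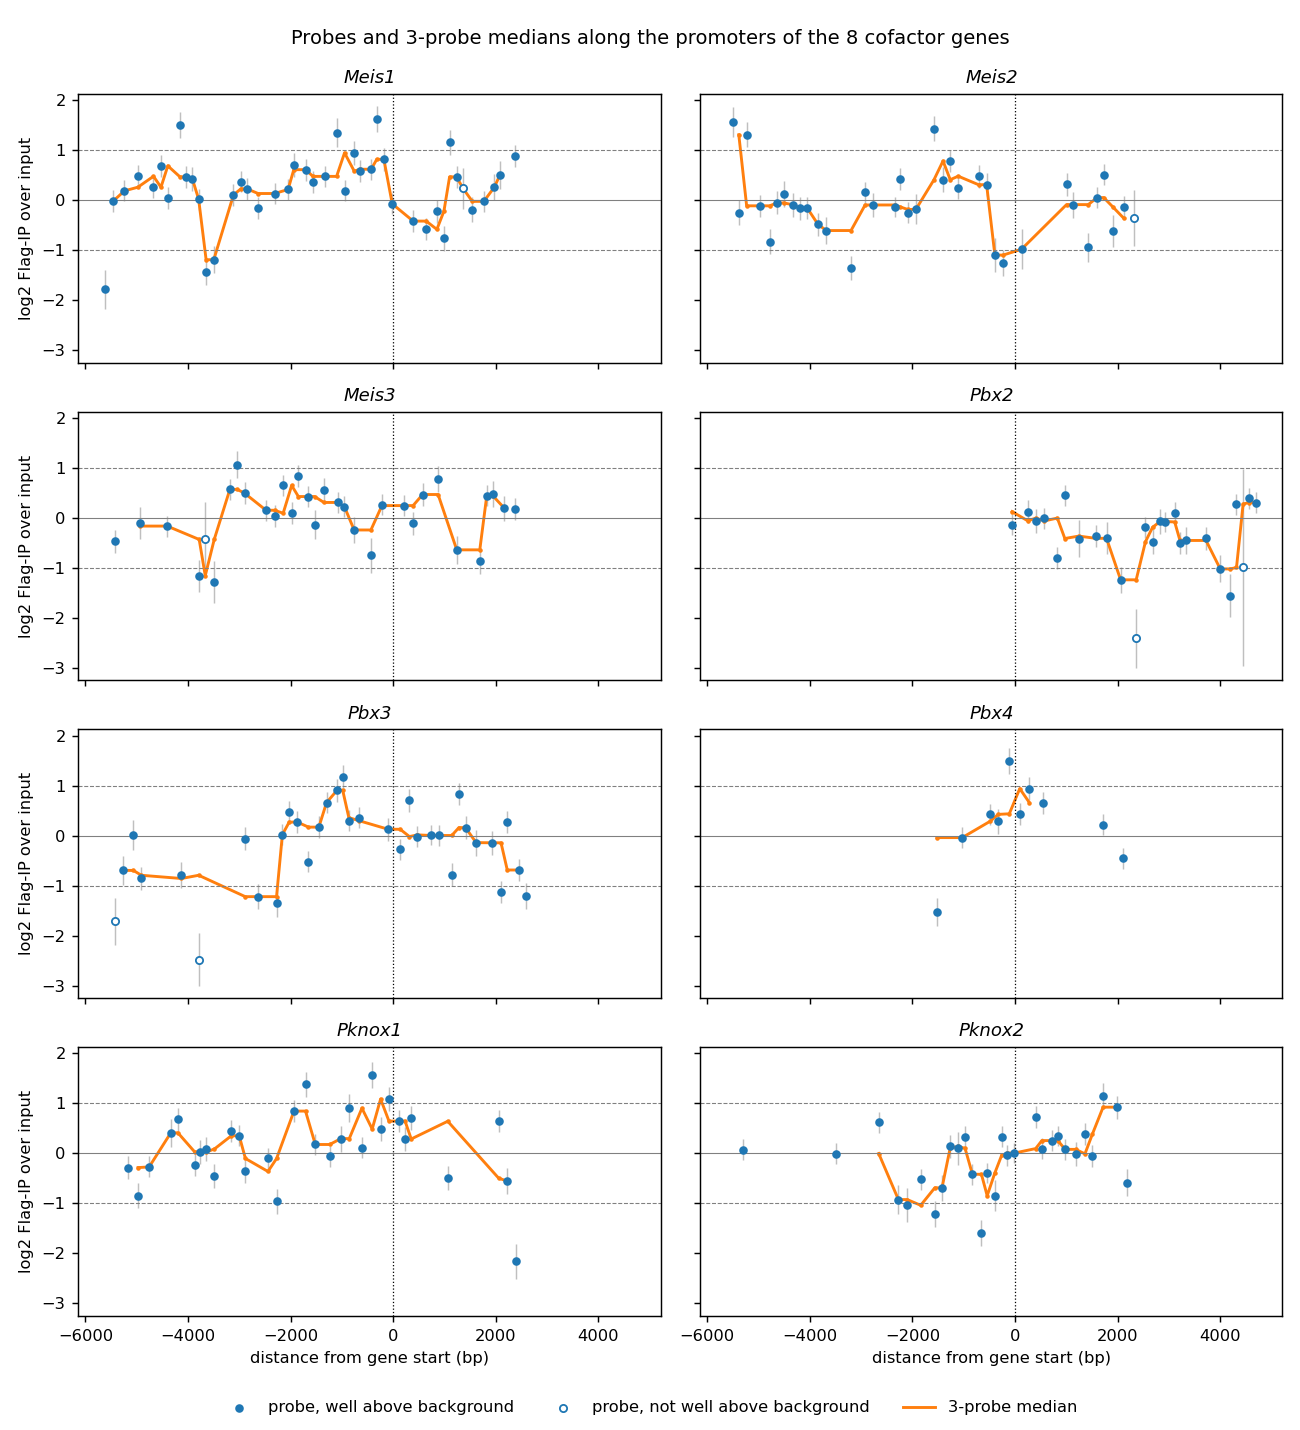
Each probe of the 8 genes (blue points; open, not well above background in both channels; grey bars, the scanner's error) and the 3-probe medians (orange) by distance from the gene start in bp, as log2 Flag-IP over input. High stretches lie before the start in Meis1 and over the start in Pknox1 and Pbx4, the 3 Meis2 probes around the start lie near -1, and most Pbx2 probes lie below 0.

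Among the Meis genes, which encode partners of Pbx, Meis1 had the broadest raised stretch. Between -3113 and -180, 16 of 17 probes were above 0, with a mean of 0.54 and a range of -0.16 to 1.62. The highest probe, at -319, had a signal of 3809 in Flag-IP and 1181 in input, a ratio of 1.62 with a scanner error of 0.26. Its neighbours read 0.62 at -427 and 0.82 at -180. The values then dropped at the start itself, and all 5 probes between -17 and 991 were below 0, between -0.77 and -0.07. Further upstream a pair of probes at -3646 and -3497 read -1.43 and -1.19, and they gave the lowest Meis1 window, -1.19 (chromosome 11, 18921767 to 18922359 in the array's coordinates). Of its 41 windows, 75.6% were above 0, against 51.8% of all windows on the arrays. Meis1 was not alone in this, as the share was 75.9% in Pknox1, 71.4% in Pbx4 and 70% in Meis3. It was 56.25% in Pbx3, 53.8% in Pknox2, 26.5% in Meis2 and 16% in Pbx2. The highest Meis1 window, 0.95 centred at -947, fell short of 1 and stood at percentile 53.2 of all genes.

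Meis2, a close relative of Meis1 with roles in limb and nerve development, had both the highest window of the set and the lowest values around a start. The high window, 1.31, lay at the far upstream edge, centred at -5385 (chromosome 2, 115761762 to 115762080). Its 3 probes read 1.56 at -5496, -0.25 at -5385 and 1.31 at -5232, so the probe in the middle did not share the excess. With medians over 5 probes the highest Meis2 window was 0.48. The 3 probes within 500 bp of the start lay close together. They read -1.10, -1.26 and -0.98 at -392, -231 and 128, with signals of 171, 381 and 132 in Flag-IP and 352, 875 and 250 in input, all well above background. Their mean of -1.11 ± 0.14 (SD over 3 probes, which share 1 sample) stood at percentile 3.65 of 16205 genes with probes there. Just upstream, all 6 probes between -1579 and -553 were above 0, with a mean of 0.61, so the ratio dropped sharply before the start.

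With the trend of the ratio on brightness removed, the mean around the Meis2 start was -0.27, and with normexp correction it was -0.71. It was -1.11 with probes well above background alone. The mean was below 0 and the lowest of the 8 members in all 10 settings run. Not all of these are separate checks, because the deposited ratios and the scanner's log ratio also gave -1.11. Changes of centring shifted all probes of an array alike. The part of brightness in the size of the mean was not tested further.

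Meis3, known for patterning the hindbrain in frog and zebrafish embryos, had 0 windows at or above 1 and 1 at or below -1. Its highest window was 0.65 at -1978 and its highest probe 1.06 at -3038. In the stretch from -2144 to -949, 7 of 8 probes were above 0, with a mean of 0.37. The 4 probes within 500 bp of the start read -0.75, 0.26, 0.25 and -0.11, a mean of -0.09 ± 0.47 (SD over probes). The lowest window, -1.16 at -3663, had a probe not well above background in the middle, which read -0.43. It was -1.16 with such probes left out and -0.26 once the brightness trend was removed. With normexp correction the highest Meis3 window was 1.42, the only setting in which Meis3 led the set.

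The Pknox genes encode partners of Pbx that are close to the Meis proteins. Pknox1 had the highest mean around its start in 8 of 10 settings of processing, and Pbx4 in 2. Some of those 8 settings left the Pknox1 mean unchanged or moved it only by the centring of the array. All 6 probes within 500 bp were above 0, reading 1.56, 0.49, 1.09, 0.64, 0.29 and 0.71 in order of position between -408 and 353. The first of them had a signal of 9893 in Flag-IP and 3189 in input, with a scanner error of 0.25. The highest window, 1.09 centred at -244 (chromosome 17, 31311975 to 31312354), used the first 3 of these probes and stood at percentile 63.6 of all genes. The mean of the 6 probes, 0.80 ± 0.46 (SD over probes), stood at percentile 80.6. A further probe at -1708 read 1.38. The low end of Pknox1 was a single probe of -2.16 at 2395, and its lowest window was -0.56.

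Pknox2, also called Prep2, showed the reverse layout, low before the start and higher inside the gene. All 5 probes between -2273 and -1423 were below 0, from -1.22 to -0.52, and gave the lowest window of -1.04 at -1838. Of the 10 probes from 403 to 1989 bp after the start, 8 were above 0, with a mean of 0.39. The highest of them read 1.14 at 1718 and 0.92 at 1989, next to a probe of -0.58 at 2182, and the highest window was 0.92. The 5 probes within 500 bp of the start read -0.85, 0.33, -0.04, 0.00 and 0.73, with a mean of 0.03 ± 0.58 (SD over probes).

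The Pbx genes encode the direct partners of Hox proteins, and the 3 measured here differed in layout. Pbx4, known for its expression in the testis, had 10 probes and 7 windows. All 6 probes from -485 to 551 were above 0, reading 0.42, 0.29, 1.49, 0.44, 0.94 and 0.66 in order of position. The highest, at -111, had a signal of 1870 in Flag-IP and 640 in input, with a scanner error of 0.26. The highest window was 0.94 at 93 (chromosome 8, 72761557 to 72761999), and the mean of the 5 probes within 500 bp, 0.71 ± 0.50 (SD over probes), stood at percentile 76.6. Its single low probe, -1.53 at -1521, gave no low window.

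Pbx3, which is needed for normal breathing control in newborn mice, had a raised stretch before its start and low values further upstream and further inside the gene. The 6 probes from -1448 to -662 were all above 0, between 0.17 and 1.18, and the highest window was 0.91 at -983 (chromosome 2, 34194886 to 34195160). Upstream of -2273, with that probe included, 8 of 9 probes were below 0, with a mean of -1.02. These include -2.48 at -3791 and -1.72 at -5427, both not well above background, with signals of 56 and 94 in Flag-IP and 299 and 297 in input. The lowest window was -1.22 at -2273, and its 3 probes were all above background. Around the start the 4 probes read 0.13, -0.28, 0.70 and -0.02. Inside the gene, probes at 2104 and 2583 read -1.13 and -1.20, and the 4 probes between 2000 and 4000 bp had a mean of -0.69.

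Pbx2, a widely expressed relative without which mice develop normally, had the least signal over the probes named for it. Its 25 probes ran from -56 to 4699, and 24 of them are annotated as inside the gene, and 4 of its 25 windows were above 0. Probes from 1244 bp onward were below 0 in 15 of 19 cases, with a mean of -0.50. The highest window was 0.31 at 4555, at percentile 13.8 of all genes, and included a probe not well above background. The 3 probes around the start read -0.14, 0.13 and -0.06. The region before the start is represented by probes that the annotation names for other genes: 8 probes of Gpsm3, from -3876 to -2661, had windows between -0.07 and 0.73. A second set of 18 probes, 11195 to 14684 bp after the Pbx2 start and named for Rnf5-Agpat1, had the highest window of any probes that also list a Pbx2 identifier, 1.86, but it lies next to the start of that other locus. A further 3 probes named for Ager had windows of -0.19 to -0.17.

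**Figure D3:**
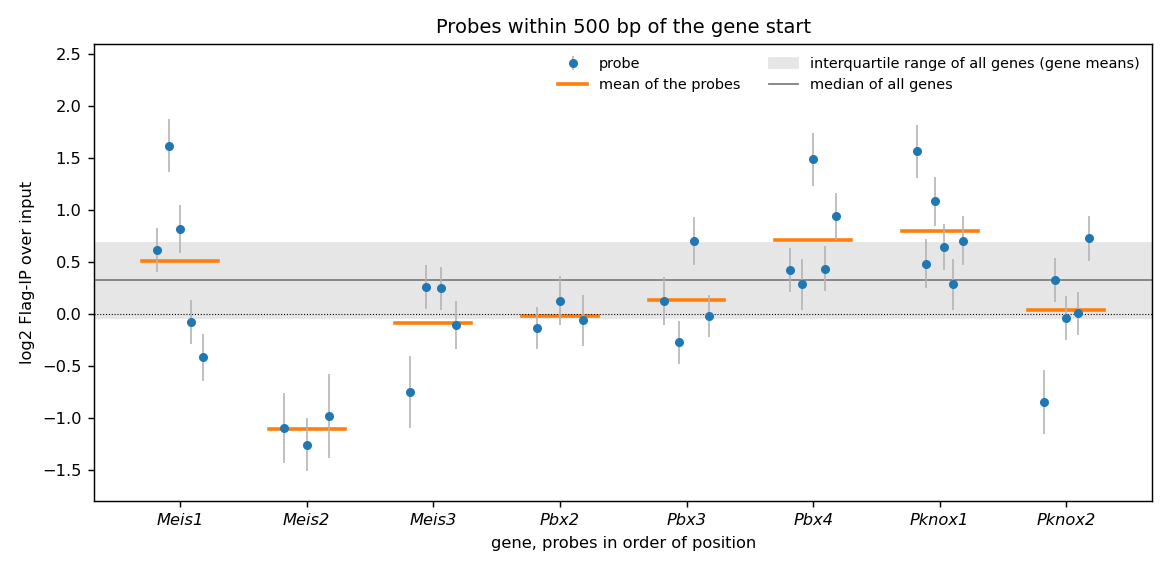
Probes within 500 bp of each gene start (blue, in order of position; bars, the scanner's error) with their mean (orange), as log2 Flag-IP over input. The grey band is the interquartile range of the gene means of 16205 genes and the grey line their median of 0.32; Pknox1 and Pbx4 means lie above the band, Meis3 just below it, and Meis2 far below it with all 3 probes near -1.

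Around gene starts the members had a lower median than other genes. The mean within 500 bp had a median of 0.08 over the 8 members and 0.32 over all genes, with an interquartile range of -0.04 to 0.68. It was above 0 in 5 of 8 members, against 73.2% of genes, and the sign of 4 members (Meis3, Pbx2, Pbx3 and Pknox2) changed with the processing. The highest window lay within 500 bp of the start in 2 members, Pbx4 and Pknox1, against 36.2% of genes. It lay before the start in 5 members, against 47.9% of genes. Meis2 was the 1 member whose lowest window lay within 500 bp of the start, a position seen in 6.67% of genes. With 8 genes these shares are descriptions, and no difference from other genes was tested.

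**Figure D4:**
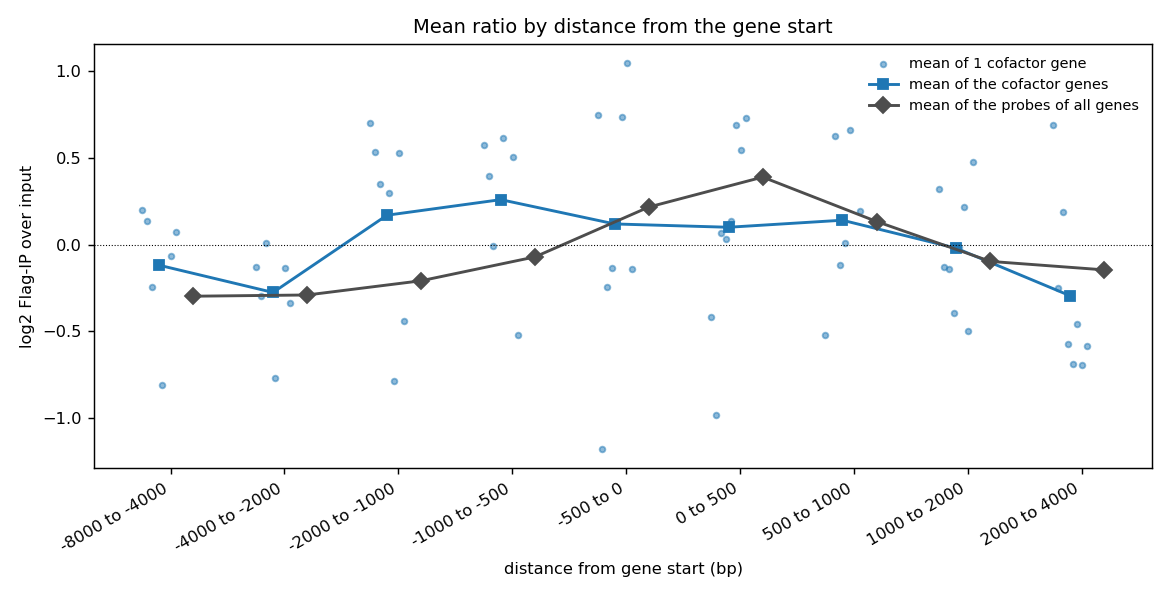
Mean log2 Flag-IP over input by distance from the gene start in bp, for the cofactor genes (blue squares, mean of the gene means; small points, single genes) and for the probes of all genes (grey diamonds). The line of all genes peaks at 0.39 from 0 to 500 bp, while that of the cofactor genes is 0.10 there and is highest, at 0.26, from -1000 to -500 bp.

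By distance, the members were lower than all genes around the start and higher upstream of it, with wide spread. From 500 bp before the start to the start, the mean of the gene means was 0.12 over 8 members and the mean over probes of all genes was 0.22. In the first 500 bp after the start these values were 0.10 and 0.39. Between 2000 and 1000 bp before the start the order was turned, with 0.17 over 7 members and -0.21 over all genes, and from 1000 to 500 bp before it the values were 0.26 over 6 members and -0.07 over all genes. The SD over member genes was 0.56 and 0.44 in these upstream bins and 0.71 and 0.58 in those around the start, larger than each of the differences. That SD is the spread between single genes and not the error of their mean, and no difference was tested. Meis1, Meis2 and Pknox1 had the highest means between 2000 and 1000 bp before the start, at 0.70, 0.54 and 0.53, and Pbx4 the lowest at -0.78.

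Windows at the extremes were fewer among the members than on the arrays as a whole. Of the 224 member windows, 2 (0.893%) were at or above 1, 1 each in Meis2 and Pknox1, against 6.45% of all windows. At or below -1 stood 13 windows (5.80%), against 11.6% of all windows, with 4 in Pbx2 and 3 in Pbx3. Among single probes, 14 of 240 were at or above 1 (5.83%, against 8.82% of all probes), led by Meis1 with 4, and 23 were at or below -1 (9.58%, against 15.4%), led by Pbx3 with 6. Neighbouring probes share chromatin fragments, so these windows and probes are not independent of each other.

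Related genes are given beside the members, whose median number of windows was 29.5. Among the other TALE homeobox genes, the Irx, Tgif and Mkx families, 9 of 11 had windows, the median of their highest windows was 0.94 over a median of 37 windows, and 4 reached 1. Tgif1, a repressor in TGF-beta signalling, was the highest of them at 2.31, above every cofactor, and the Iroquois gene Irx6 was the lowest at 0.39. Of the Hox genes themselves, 19 of 33 reached 1, with a median of 1.13 over a median of 41 windows and a range from Hoxb3 at 0.25 to Hoxa6 at 1.78. Among genes of blood cells linked to Hox and Meis proteins, 4 of 9 measured reached 1, with a median of 0.83 over a median of 33 windows. Trib2, a pseudokinase that drives myeloid leukaemia in mice when overexpressed, was the highest at 1.49, and the hypoxia factor gene Hif1a the lowest at 0.51. Pbxip1, whose protein binds Pbx, had a highest window of 1.03. For comparison with these counts, 42.7% of all genes reached 1, and no list was tested against them.

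Both arrays were of like quality. Of 237195 and 237185 gene probes, 95.3% on each were well above background in both channels and 0 were saturated. Neighbouring probes with starts no more than 1000 bp apart correlated at 0.60 on the first array and 0.58 on the second. Of the member probes, 7 were not well above background. The number of arrays limits the precision of every value here.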

How the data were processed

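Flag-HoxB4 binding was measured by ChIP-chip on 2 Agilent 2-colour promoter arrays. Per the file headers, the authors' deposited intensity values were processed with Agilent Feature Extraction 10.1.1.1, with background subtraction, spatial detrending and linear dye scaling. The deposited value tables hold log10 ratios of Cy5 (Flag-IP) over Cy3 (input), equal to the scanner's log ratio within 1e-05 for 237157 and 237107 probes. No header or label used here names the genome build of the probes.

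Log2 of the processed Flag-IP over input signals was centred on each array's median (0.06 and 0.07). Control spots and 19 and 38 probes marked as outliers were left out. Windows are medians of 3 probes at most 1000 bp apart and belong to the gene named for the middle probe. Of 17602 names in the files, 16945 were matched to RefSeq GRCm38.p6 through identifiers, 343 through symbols and 178 through synonyms, and 136 were kept unmatched. With 1 sample a region there was no test. The thresholds of 1 and 2 are round log2 values. The calculation of window medians was tested on simulated data with independent noise at each probe. Neighbouring probes of these arrays are correlated, so that test does not show how often windows reach 1 here. All 8 members are named. Other genes are named only as the ends of a list, as neighbours of the highest member, or as sharing probes with a member. Stretches of probes were picked after their values were seen. The members and lists were chosen with earlier results of these data known. R 4.3.3, limma 3.58.1, Python 3.11.15, numpy 2.4.6 and pandas 2.3.3 were used. Alternatives covered background correction, brightness trend, dim probes, window size, gap, centring, deposited ratios and threshold. The labels give day 8 of coculture for the expression arrays, not used here, and the design text gives day 12.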

Additional observations from a re-analysis of the deposited data

How the results depend on the processing

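Of the 2 counts and the median that sum up the members, the median highest window ran from 0.57 with medians over 5 probes to 1.33 with single probes, against 0.72 and 1.30 over all genes. The count of members reaching 1, which was 2, was 0 with medians over 5 probes, 6 with centring on probes between -6000 and -4000 bp from gene starts and 7 with single probes. The shares of all genes under these settings were 28.4%, 59.4% and 69.3%. It was 3 with normexp correction, with the brightness trend removed and with no centring, beside 51.3%, 34.8% and 47.5% of all genes, and 3 with the probes that list Pbx2 under another gene added, a setting chosen after seeing the data. At thresholds of 0.5, 1.5 and 2 the count was 7, 0 and 0, beside 77.6%, 14% and 3.02% of all genes. The count of members at or below -1, which was 6, was 1 with medians over 5 probes, 1 with centring on distal probes, 0 with the brightness trend removed and 0 with normexp correction, beside 37.3%, 41.8%, 28.8% and 6.82% of all genes. The cause of these moves beyond the construction of each setting was not tested. The mean within 500 bp of the start was above 0 in all 10 settings for Meis1 (0.25 to 0.73), Pbx4 (0.47 to 0.96) and Pknox1 (0.63 to 1.01) and below 0 in all 10 for Meis2 (-1.12 to -0.27). It lay on both sides of 0 for Meis3 (-0.09 to 0.28), Pbx2 (-0.14 to 0.19), Pbx3 (-0.12 to 0.52) and Pknox2 (-0.09 to 0.29). The deposited ratios gave the same counts as the processed signals, but they hold almost the same values, so this was no separate check. The settings counted above are likewise not all independent of each other. Each array alone was not run, because no member has probes on both. No paired analysis was possible because each region has 1 sample.

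The chief limits are the lack of a replicate, of a precipitation without the tag and of named expression values. With probes not well above background left out, 6 members still had a window at or below -1. Pbx4 has few probes and Pbx2 hardly any before its start.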
